A study of Rattus norvegicus with 24 samples.

Results

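The genes described here build the contractile lattice of striated muscle. They are 43 symbols that encode proteins of the thin filament, the thick filament with its M-band, the Z-disc, the myosin light chains with the kinase that phosphorylates them, and the factors that fold or assemble these proteins. Members were the rows of the expression table whose symbol is on this list, and for a symbol with several rows the row with the highest mean over all samples stood for the gene. Of the 43 symbols, 41 were in the table, in 63 of its 14243 rows and among its 13458 symbols. Lmod3 (a leiomodin) and Myl6b (a light chain) were not analysed here. By band, 9 of the 10 listed thin filament genes, 7 of 7 thick filament and M-band genes, 14 of 14 Z-disc genes, 7 of 8 light chain and kinase genes and 4 of 4 assembly and chaperone genes were measured.

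A sarcomere is the repeating unit between neighbouring Z-discs, which crosslink actin thin filaments through alpha-actinin. Myosin thick filaments lie between the thin filaments and are tied together at the M-band by myomesins. Several of these proteins exist as fast, slow and embryonic isoforms encoded by separate genes, and the mix of isoforms differs between fibre types and during development. The tibialis anterior (TA) of the rat is a muscle of mostly fast fibres.

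RNA-seq was carried out on the TA of 12 male Fischer 344 rats aged 23 ± 1 months, and both hindlimbs of every rat were sequenced separately (24 limbs). In 9 animals tetrodotoxin (TTX), a blocker of voltage-gated sodium channels, was delivered to the left common peroneal nerve from an osmotic pump, which silences the nerve to the TA without cutting it. Left limbs were taken after 6 to 7 days of TTX (atrophy, n = 3), after the same period followed by 9 days without TTX (recovery, n = 3), or after a further 5 to 6 days of TTX (repeated atrophy, n = 3). The untreated right limbs of these 9 animals were the control group, and 3 sham-operated animals, 1 for each time point, gave 3 left and 3 right limbs without TTX. All animals were aged, so the groups describe old muscle only, and whole TA muscle was sampled rather than isolated fibres.

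Depth was 18.9 to 30.9 M reads per limb (median 26.1, where 1 M is 1000000 reads). It was inferred by taking the most frequent low value above 0 as 1 read. The values are counts per 1000000 reads (CPM), so each gene is given as its share of a library, and in RNA from whole muscle fewer cells of a type and less RNA per cell cannot be told apart. Shares of a protein family are given per transcript length and over all rows of each symbol, and ratios of CPM between genes, which are not divided by length, are compared between limbs only. The rows of the 41 members together took 9.85% to 16.8% of the library in control limbs (median 14.1%), 10.1% to 11.1% after atrophy, 15.4% to 16.8% after recovery and 9.32% to 11.8% after repeated atrophy. All 10 marker genes of adult muscle fibres were present, and their sum was 181397 to 227352 CPM in control limbs, 83838 to 190094 after atrophy, 172441 to 193022 after recovery and 109001 to 126749 after repeated atrophy. Differences were tested with limma on log2(CPM + 1) across all 14031 rows above 0 in at least 3 limbs, and a gene was called changed where the fold reached 1.2 and p, adjusted by the Benjamini-Hochberg method, was 0.05 or lower.

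Some libraries stood apart from their group over these genes. Of the 20 members called after atrophy, 16 lay within the range of the control limbs in the left limb of atrophy animal 2, against 1 in animal 1 and 1 in animal 3. The right limb of atrophy animal 3, a control limb, held the control value nearest to the treated side for 10 of those 20 members. It also lay farthest from the remaining control limbs over the 41 members, with a root mean square distance of 0.812 on the log2 scale against 0.215 to 0.55 for the other 8. Both limbs of sham animal 3 (distance 1.05 and 0.935) stood apart too. The right limbs of the recovery animals differed from the other control limbs, as described after the bands.

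After atrophy 8 of the 41 members were higher and 12 were lower than control, after recovery 2 were higher and 2 lower, and after repeated atrophy 10 were higher and 15 lower. Among all rows tested, 20.3% were called higher and 2.33% lower in atrophy limbs, 4.4% and 3.33% in recovery limbs, and 28.1% and 6.24% in repeated atrophy limbs. The members thus held a larger share of lower calls than all rows after atrophy (29.3%) and repeated atrophy (36.6%), and a share of higher calls that was near the background (19.5% and 24.4%). The 20 members called after atrophy were all called again after repeated atrophy in the same direction, and 5 more joined them (Unc45b and Myl4 higher, Myom1, Myot and Pdlim5 lower). The atrophy and repeated atrophy groups were set against the same control limbs. The heat map of differences shows both groups beside recovery.

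**Figure D1:**
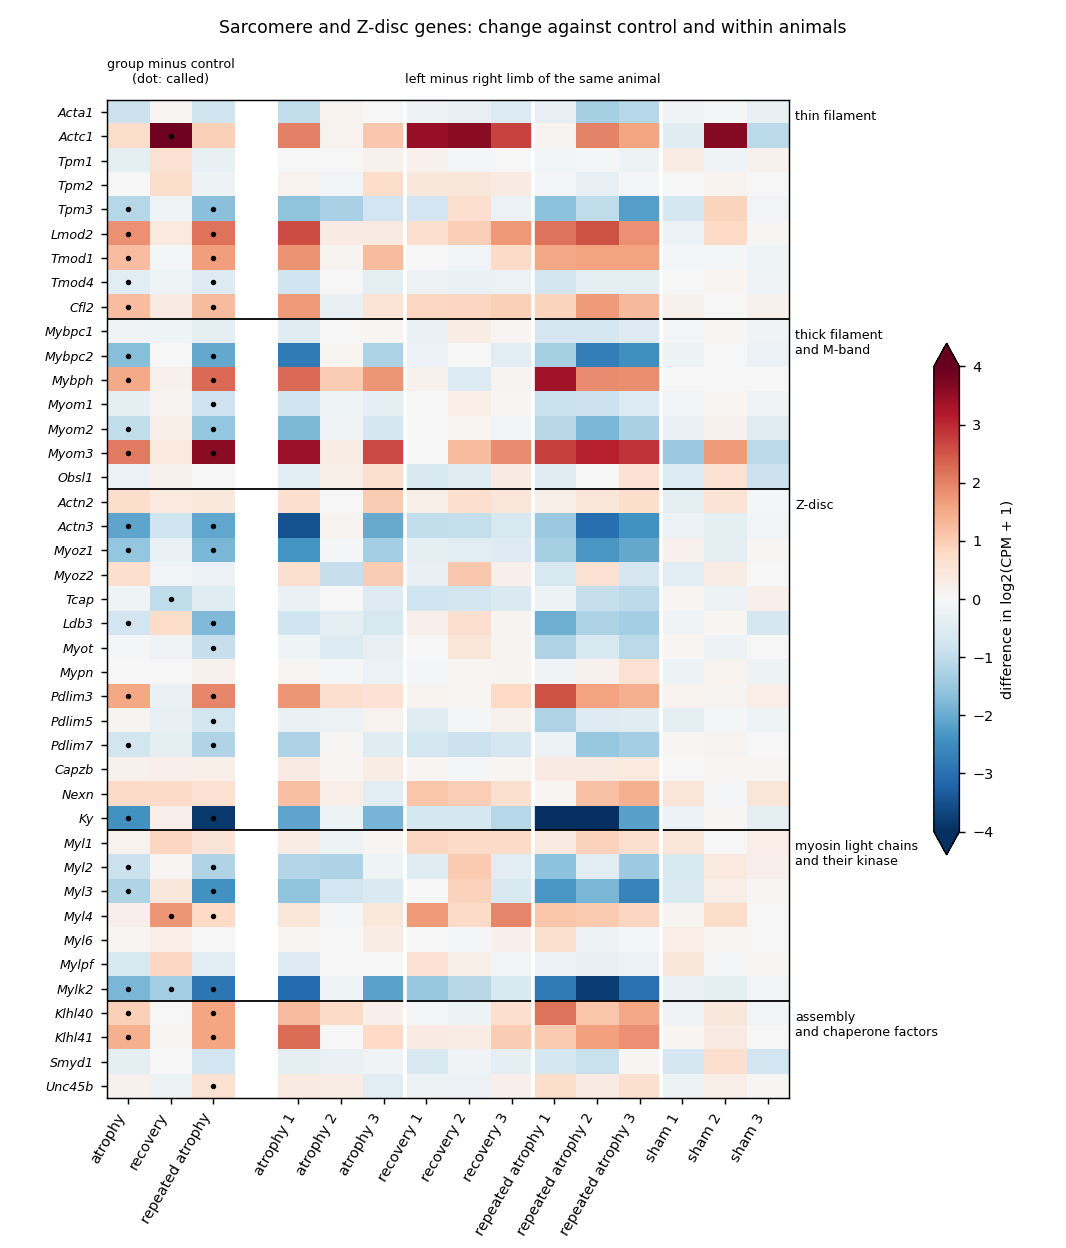
Differences in log2(CPM + 1) for the 41 members, ordered by band. The first 3 columns give each treated group minus the 9 control limbs, with a dot where the change was called, and the other 12 columns give the left minus the right limb of each animal. Atrophy animals 1 and 3 and the 3 repeated atrophy animals share the colours of Actn3, Ky and Mylk2, while atrophy animal 2 and the sham animals are pale for these genes.

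The median log2 fold change of the members was -0.05 in atrophy, 0.07 in recovery and -0.28 in repeated atrophy limbs, beside 0.22, 0.02 and 0.20 over all rows. Rescaling the libraries by a trimmed mean of log ratios brought the median of all rows to -0.0012, 0.0121 and -0.0091, and that of the members to -0.43, 0.05 and -0.67. It moved the split of calls, with 5 members higher and 13 lower in atrophy limbs, 2 and 1 in recovery limbs, and 8 and 17 in repeated atrophy limbs. On the rescaled values 4.53% and 5.15% of all rows were called higher and lower in atrophy limbs, 6.14% and 5.92% in recovery limbs, and 13.1% and 12.1% in repeated atrophy limbs. The members then exceeded all rows in higher calls too (12.2% after atrophy, 19.5% after repeated atrophy), beside lower calls of 31.7% and 41.5%. Leaving out atrophy animal 2 gave 11 members higher and 12 lower after atrophy, and leaving out animal 1 gave 0 calls with limma, where 18 members had an unadjusted p under 0.05. Without the right limb of atrophy animal 3 atrophy limbs had 9 members higher and 12 lower, and repeated atrophy limbs 10 and 15.

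Both limbs of an animal form a pair, and a fit with the animal as a block compares them within animals. With this block as a fixed effect, limma called 0 of the 41 members after atrophy, where 20 had an unadjusted p under 0.05. Of all 14031 rows it called 0.0%, and 19.1% had an unadjusted p under 0.05. The 20 members called without the block kept their sign, with adjusted p-values of 0.149 to 0.288. After recovery the block left 1 call, Actc1 (0.0428% of all rows higher). After repeated atrophy it gave 11 higher and 14 lower members (21.5% and 5.66% of all rows). Of the 25 members called without the block, 24 were called with it. The exception was Tmod4 (adjusted p = 0.0621 with the block), and Actc1 was added. A random effect of animal in place of the block gave 21, 4 and 26 calls. Calls after atrophy in the paragraphs that follow are against the pooled control limbs and were not made within animals.

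Among the thin filament genes, 3 of 9 were higher and 2 lower after atrophy, 1 was higher after recovery, and 3 were higher and 2 lower after repeated atrophy. The calls included genes of filament length and turnover. The abundant Acta1 and Tpm2 were called under other settings only: without the variance trend in limma, with robust hyperparameters, or over rows with a mean of at least 10 CPM, Acta1 was lower after atrophy and repeated atrophy and Tpm2 higher after recovery. The median log2 fold change of the band was -0.02, 0.31 and -0.20 in the 3 comparisons.

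Actc1, cardiac alpha-actin, is the sarcomeric actin of heart and of developing skeletal muscle. Its level was 12.0 CPM in the lowest control limb, 38.0 in the median and 57.2 in the highest. After recovery it was 545, 586 and 375 CPM, above every control limb, whereas the right limbs of the same animals held 47.5, 46.9 and 57.2 CPM. The log2 fold change was 3.88 ± 0.59 (SE, n = 3 against 9, limma adjusted p = 0.00154), and within animals 3.27 (adjusted p = 0.0174 with the animal block). After atrophy Actc1 was 187, 13.4 and 64.4 CPM and after repeated atrophy 24.7, 92 and 117 CPM, so that in each group 1 limb lay within the control range. The change after repeated atrophy was 0.96 (adjusted p = 0.224), and 1.23 with the block (adjusted p = 0.0370). In sham animal 2, sampled at the recovery time, the left limb held 156 CPM against 11.4 in its right limb.

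Acta1 is the skeletal alpha-actin of adult fibres. Its control limbs ranged from 19938 to 50964 CPM (median 41612), and its limbs after atrophy held 15331, 21744 and 23073 CPM, after recovery 39576, 40230 and 34033 CPM, and after repeated atrophy 27480, 16708 and 19720 CPM. No change was called in the fit with the trend over all rows (log2 fold change -0.87, 0.07 and -0.79, adjusted p = 0.207, 0.95 and 0.232). The coding sequences of the sarcomeric actins are nearly identical and the assignment of shared reads is not given in the sources used here, so the small values of Actc1 are uncertain in size.

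The promoters of these actins are shown because each holds a CArG box, the motif bound by serum response factor. Both are 300-base windows around the transcription start in RefSeq (GRCr8, a later build than the rn7 of the expression table), printed 5′ to 3′ on the minus strand at chr19:68784145-68784444 for Acta1 and chr3:121271778-121272077 for Actc1. Capitals mark the CArG box.
Acta1: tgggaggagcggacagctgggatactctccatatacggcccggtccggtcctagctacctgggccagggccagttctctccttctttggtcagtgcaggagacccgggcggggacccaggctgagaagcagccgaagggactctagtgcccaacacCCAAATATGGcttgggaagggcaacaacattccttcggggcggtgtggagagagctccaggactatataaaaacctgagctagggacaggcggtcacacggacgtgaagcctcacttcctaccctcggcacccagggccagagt
Actc1: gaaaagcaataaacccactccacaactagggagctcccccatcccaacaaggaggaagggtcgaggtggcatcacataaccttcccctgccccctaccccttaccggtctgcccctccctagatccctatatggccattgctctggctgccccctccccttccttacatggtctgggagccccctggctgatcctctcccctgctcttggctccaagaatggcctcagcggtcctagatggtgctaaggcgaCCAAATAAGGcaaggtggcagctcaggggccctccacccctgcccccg
The box begins at base 157 of the Acta1 window and at base 253 of the Actc1 window. Of the 34 members with a promoter in the table, 4 held a CArG box (Acta1, Actc1, Ldb3 and Myl3), or 11.8%, beside 1.64% of all 33469 promoters. The motif reads the same on both strands. The levels of these 4 genes did not move together: after repeated atrophy Ldb3 and Myl3 fell, and Acta1 and Actc1 were not called.

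Of the genes of filament ends and turnover, Tmod1, Lmod2 and Cfl2 rose under TTX and Tmod4 fell. Tmod1, a tropomodulin that caps the pointed end of the thin filament, ranged from 278 to 435 CPM in control limbs (median 357). It was 1232, 472 and 900 CPM after atrophy and 1008, 1129 and 1147 CPM after repeated atrophy, above all control limbs in each group, and 287, 278 and 472 CPM after recovery. The log2 fold change was 1.23 ± 0.23 after atrophy (adjusted p = 0.00596) and 1.67 ± 0.23 after repeated atrophy (adjusted p = 8.81e-05). Its paralog Tmod4, the skeletal muscle tropomodulin, was 491 to 659 CPM in control limbs (median 568) and went the other way. It was 376, 540 and 370 CPM after atrophy, 546, 501 and 485 after recovery, and 389, 405 and 415 CPM after repeated atrophy, where all limbs were below control. Sham animal 3, without TTX, held less, at 241 CPM in the left and 263 in the right limb. The other sham limbs held 504 to 626 CPM. The change was -0.44 ± 0.14 and -0.51 ± 0.14 after atrophy and repeated atrophy (adjusted p = 0.0274 and 0.00757).

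Lmod2, a leiomodin that elongates thin filaments at the same end, was 121 CPM in the lowest control limb, 175 in the median and 918 in the highest, which was the right limb of atrophy animal 3. Its level was 1000, 388 and 1187 CPM after atrophy and 1197, 1020 and 816 CPM after repeated atrophy, against 239, 252 and 402 CPM after recovery. In sham animal 3, without TTX, it was 893 CPM in the left and 861 in the right limb. The other sham limbs held 122 to 314 CPM. The difference from control after atrophy and repeated atrophy was 1.82 ± 0.46 (adjusted p = 0.0126) and 2.19 ± 0.46 (adjusted p = 0.00168) in these groups. Cfl2, the muscle cofilin that severs actin filaments, ranged from 519 to 1641 CPM in control limbs (median 736). After atrophy it was 2693, 1338 and 2015 CPM and after repeated atrophy 1953, 2388 and 1573 CPM, so 1 limb of each group lay within the control range, and after recovery 993, 936 and 1124 CPM. Its change was 1.25 ± 0.32 in both comparisons (adjusted p = 0.0123 and 0.00537), and on the rescaled values 0.87 after atrophy (adjusted p = 0.0525).

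Tpm3, the slow-fibre tropomyosin, fell. Its control limbs ranged from 151 to 428 CPM (median 248), and it was 91.5, 116 and 132 CPM after atrophy, 78.5, 88.6 and 67.4 CPM after repeated atrophy and 251, 241 and 184 CPM after recovery. All atrophy and repeated atrophy limbs were below all control limbs (log2 fold change -1.14 ± 0.23, adjusted p = 0.00659, and -1.67 ± 0.23, adjusted p = 0.000105). Tpm1 and Tpm2, the tropomyosins of fast and mixed fibres, were not called in any comparison with control in that fit (log2 fold change -0.34 to 0.72, lowest adjusted p 0.141).

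**Figure D2:**
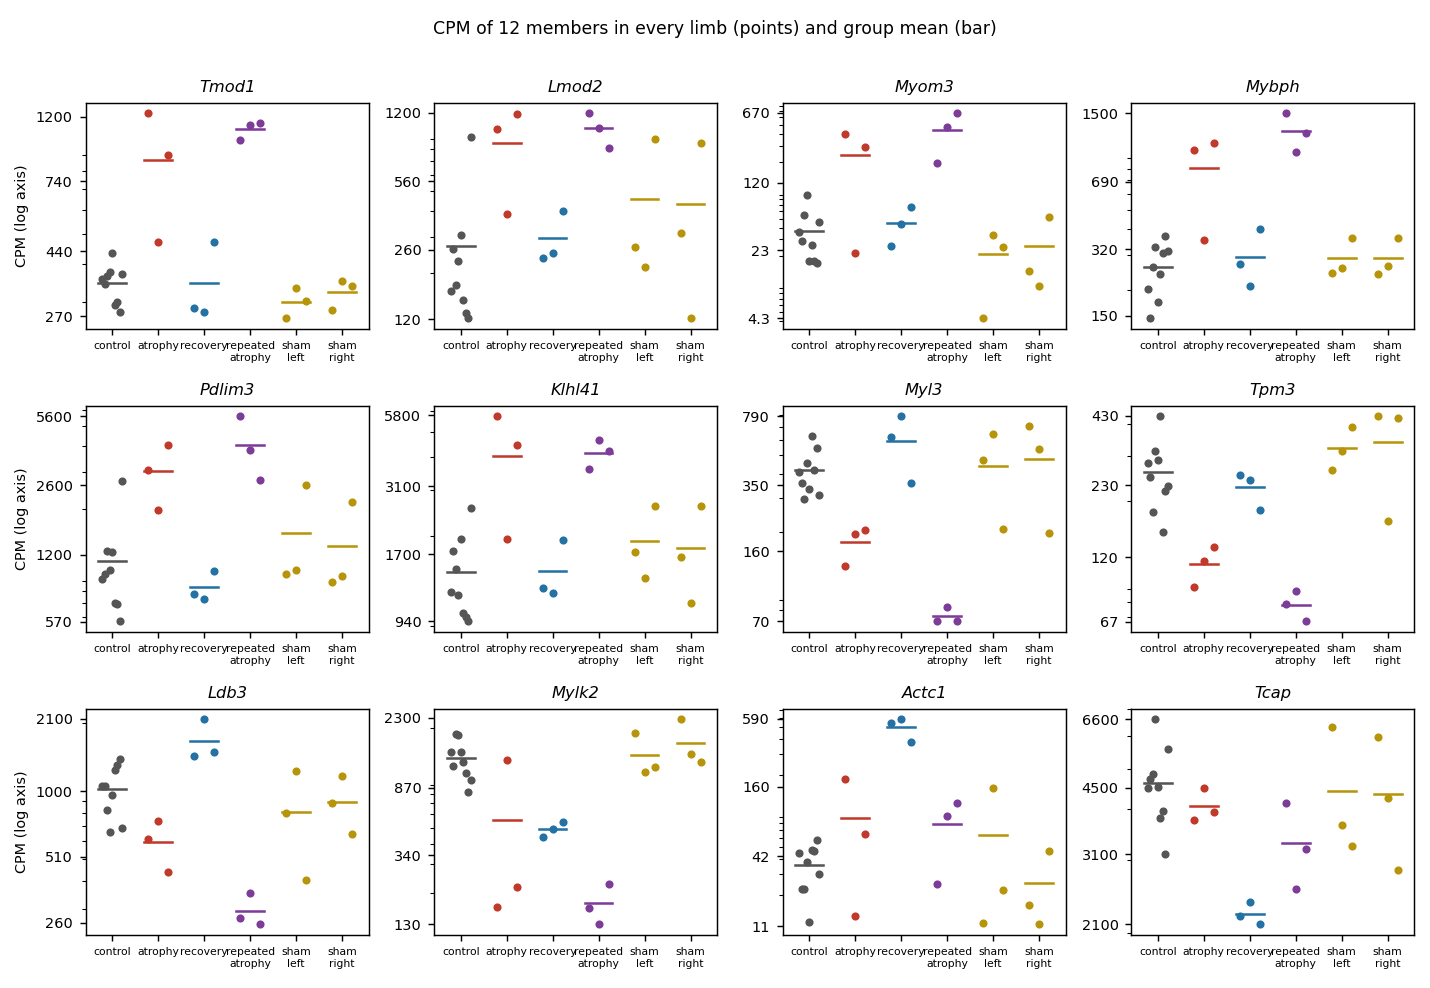
CPM of 12 members in each limb on log axes, with a point for each limb and a bar for the group mean. Tmod1 and Mybph are above the control range in the 3 repeated atrophy limbs, Myl3, Tpm3, Ldb3 and Mylk2 are below it, Actc1 is above and Tcap below it in the 3 recovery limbs, and atrophy animal 2 is the lone low point for Myom3 and Mybph and the lone high point for Mylk2.

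In the thick filament and M-band, 2 of 7 genes were higher and 2 lower after atrophy, 0 were called by limma after recovery, where 0 of 7 had an unadjusted p under 0.05, and 2 were higher and 3 lower after repeated atrophy. Myom3 and Mybph rose, and Myom2 and Mybpc2 fell. The median log2 fold change of the band was -0.22, 0.16 and -0.41.

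Myom3, the myomesin of slow and intermediate fibres (chr5:147992737-148043277, rn7), had the largest rise of the 41 members after atrophy and after repeated atrophy. It was 16.9 CPM in the lowest control limb, 28.5 in the median and 89.5 in the highest. After repeated atrophy it was 195, 473 and 666 CPM, above all control limbs, and after atrophy 402, 21.5 and 287 CPM, with animal 2 inside the control range. The log2 fold change was 3.60 ± 0.67 after repeated atrophy (adjusted p = 0.000677) and 2.08 ± 0.67 after atrophy (adjusted p = 0.0331), and the latter was not called on the rescaled values (1.71, adjusted p = 0.0861). Recovery limbs, at 25.7, 43.8 and 66.0 CPM, were within the control range.

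Myom2, the myomesin of fast fibres, moved down. Its control limbs ranged from 1384 to 2720 CPM (median 2097), and it was 778, 1798 and 853 CPM after atrophy, 2328, 2727 and 2435 CPM after recovery, and 807, 593 and 814 CPM after repeated atrophy, where no limb overlapped control. The change was -1.0 ± 0.25 after atrophy (adjusted p = 0.0115) and -1.54 ± 0.25 after repeated atrophy (adjusted p = 0.000272). Per length and with both Myom3 rows summed, Myom3 made up 0.628% to 4.19% of the myomesin reads in control limbs and 19.2% to 38.8% after repeated atrophy. Myom1, the myomesin found in all fibres, was 1520 to 2019 CPM in control limbs (median 1793), 1158, 1735 and 1384 CPM after atrophy, 1834, 2118 and 1855 CPM after recovery and 975, 1049 and 1041 CPM after repeated atrophy. It was called lower only in the last of these (-0.82 ± 0.16, adjusted p = 0.000831), and on the rescaled values also after atrophy (-0.73, adjusted p = 0.0289).

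The myosin-binding proteins, which sit on the thick filament and tune the access of myosin to actin, did not move together. Mybph, myosin-binding protein H, ranged from 146 to 372 CPM in control limbs (median 260). It was 983, 356 and 1066 CPM after atrophy, 269, 209 and 401 CPM after recovery and 1503, 968 and 1200 CPM after repeated atrophy. The change was 1.52 ± 0.32 after atrophy (adjusted p = 0.00721) and 2.26 ± 0.32 after repeated atrophy (adjusted p = 0.000115), when all 3 limbs exceeded control. Mybpc2, the fast myosin-binding protein C, was 4662 to 9018 CPM in control limbs (median 8078) and fell to 1032, 5394 and 1953 CPM after atrophy and 2691, 1246 and 1599 CPM after repeated atrophy. The recovery limbs, at 6874, 8598 and 6668 CPM, lay inside the control range. Its log2 fold change was -1.70 ± 0.38 (adjusted p = 0.00894) and -2.04 ± 0.38 (adjusted p = 0.000755). Mybpc1, the slow form, was not called (-0.14, -0.17 and -0.41 in the 3 comparisons), nor was Obsl1, an obscurin-like M-band linker (-0.22, 0.16 and 0.01).

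Of 14 Z-disc genes, 1 was higher and 5 lower after atrophy, 1 was lower after recovery, and 1 was higher and 7 lower after repeated atrophy. The median log2 fold change of the band was -0.03, -0.13 and -0.61. On the rescaled values the count after repeated atrophy was 1 higher and 8 lower, since Tcap was added (-0.87, adjusted p = 0.0225).

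Ky, the kyphoscoliosis peptidase that binds filamin C at the Z-disc (chr8:103086630-103126025, rn7), had the largest fall of the 41 members after atrophy and after repeated atrophy. Its control limbs ranged widely, from 72.1 to 844 CPM (median 360). It was 82.6, 152 and 19.2 CPM after atrophy, 514, 394 and 298 CPM after recovery and 12.6, 11.2 and 77.5 CPM after repeated atrophy, so that 1 limb in the last group lay above the lowest control limb. Sham animal 3, without TTX, held 25.3 CPM in the left and 33.7 in the right limb, below all control limbs. The other sham limbs held 224 to 611 CPM. The change was -2.43 ± 0.68 after atrophy (adjusted p = 0.0187) and -3.86 ± 0.68 after repeated atrophy (adjusted p = 0.000486). Within the repeated atrophy animals the left minus right difference was -4.36, -5.03 and -2.18 on the log2 scale. Ky was also lower in the left limb of all 3 recovery animals (-0.72, -0.70 and -1.13), although the difference from the pooled control limbs was 0.20 (adjusted p = 0.895).

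Actn3, the alpha-actinin of fast fibres, ranged from 6334 to 16689 CPM in control limbs (median 12742). It was 1301, 10978 and 1567 CPM after atrophy, 6443, 7012 and 7827 CPM after recovery and 4001, 1981 and 3123 CPM after repeated atrophy. All repeated atrophy limbs were below all control limbs (-2.06 ± 0.49, adjusted p = 0.00361), and the change after atrophy was -2.11 ± 0.49 (adjusted p = 0.00939). Actn2, the alpha-actinin of all fibres, was not called (0.70, 0.39 and 0.41, lowest adjusted p 0.0522), but was called higher after atrophy under settings that included the 3 named for Acta1. Myoz1, a calsarcin of fast fibres that links alpha-actinin to calcineurin, was 1646 to 4114 CPM in control limbs (median 3743), with the lowest value in the right limb of atrophy animal 3. It was 770, 3323 and 635 CPM after atrophy, 2912, 3005 and 2679 CPM after recovery and 1487, 721 and 839 CPM after repeated atrophy. The fall was -1.54 ± 0.39 (adjusted p = 0.0122) and -1.83 ± 0.39 (adjusted p = 0.00176), while the slow calsarcin Myoz2 was not called (0.67, -0.11 and -0.23).

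Ldb3 (ZASP or cypher), a PDZ and LIM protein that anchors alpha-actinin, was lowest under TTX. Its main row was 655 to 1383 CPM in control limbs (median 1054). It was 612, 734 and 435 CPM after atrophy and 274, 351 and 256 CPM after repeated atrophy, below all control limbs in the latter, and 1430, 2089 and 1494 CPM after recovery, above all control limbs. The change was -0.77 ± 0.24 (adjusted p = 0.0280), -1.76 ± 0.24 (adjusted p = 8.64e-05) and 0.74 ± 0.24 (adjusted p = 0.0618) after atrophy, repeated atrophy and recovery. Within animals it was -0.61, -1.51 and 0.33, with adjusted p-values of 0.181, 0.00302 and 0.396 in the limma fit with the block. The table holds 5 Ldb3 transcripts, and how reads shared by them were divided is not given in the sources used here. The row of 1446 bases (chr16:9892430-9918450, rn7) fell by 3.81 on the log2 scale after repeated atrophy (adjusted p = 6.40e-06), beside 1.76 for the row of 4706 bases (chr16:9855927-9918450). Per length, the 2 longest rows made up 12.9% to 26.2% of Ldb3 reads in control limbs, 26.6% to 33.4% after repeated atrophy and 23.1% to 30.7% after recovery.

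Other LIM-domain genes of the Z-disc split. Pdlim3, which binds alpha-actinin, ranged from 572 to 2721 CPM in control limbs (median 965), the highest again the right limb of atrophy animal 3. It was 3089, 1980 and 4044 CPM after atrophy, 772, 730 and 1002 CPM after recovery and 5598, 3854 and 2764 CPM after repeated atrophy, all above control in the last group. The rise was 1.54 ± 0.36 (adjusted p = 0.00966) and 1.96 ± 0.36 (adjusted p = 0.000630). Pdlim7 (enigma) fell, from 52.5 to 107 CPM in control limbs (median 84.8) to 35.1, 66.9 and 47.8 CPM after atrophy and 45.2, 28.1 and 33.5 CPM after repeated atrophy. It was 62.8, 58.9 and 62.5 CPM after recovery. Its change was -0.74 ± 0.21 (adjusted p = 0.0210) and -1.19 ± 0.21 (adjusted p = 0.000521). Pdlim5 and Myot, the actin-bundling myotilin, were called lower only after repeated atrophy, with changes of -0.74 ± 0.18 (adjusted p = 0.00495) and -0.92 ± 0.25 (adjusted p = 0.00884). The levels of Pdlim5 were 53.5 to 74.3 CPM against 84.2 to 134 in control limbs, and those of Myot 788 to 1514 CPM against 1476 to 3550.

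Tcap, telethonin, which joins the ends of titin at the Z-disc, was the Z-disc gene called after recovery. Its 3 recovery limbs held 2098 to 2371 CPM, all below the 9 control limbs (3111 to 6612 CPM). The change was -1.03 ± 0.24 (adjusted p = 0.0163), and within animals -0.70 (adjusted p = 0.232 with the block). The left limb was lower than the right in all 3 recovery animals (-0.79, -0.74 and -0.57 on the log2 scale). The remaining Z-disc genes, Actn2, Myoz2, Mypn (myopalladin), Capzb (the barbed-end capping protein) and Nexn (nexilin), had log2 fold changes between -0.23 and 0.78 with no call.

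Of the 7 genes of the myosin light chains and their kinase, 3 were lower after atrophy, 1 was higher and 1 lower after recovery, and 1 was higher and 3 lower after repeated atrophy. The rows that stood for the fast light chains, Myl1 and Mylpf, were not called in these comparisons, although a second Myl1 row was called after recovery, and the first was too under settings that included the 3 named for Tpm2. The median log2 fold change of the band was -0.61, 0.46 and -0.43.

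Mylk2, the skeletal myosin light chain kinase (chr3:141376684-141388355, rn7), was called lower in all 3 comparisons. Its control limbs ranged from 817 to 1830 CPM (median 1249). It was 165, 1279 and 220 CPM after atrophy, 436, 487 and 537 CPM after recovery and 164, 130 and 227 CPM after repeated atrophy, and in the latter pair of groups all limbs were below control. The change was -1.81 ± 0.42 (adjusted p = 0.00917), -1.39 ± 0.42 (adjusted p = 0.0484) and -2.90 ± 0.42 (adjusted p = 0.000132). The call after recovery was lost on the rescaled values (-1.41, adjusted p = 0.0507) and with the block (-1.08, adjusted p = 0.248). Within recovery animals the left limb was lower in all 3 (left minus right -1.52, -1.12 and -0.60 on the log2 scale).

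Myl3 and Myl2, the essential and regulatory light chains of slow fibres, fell under TTX. Myl3 ranged from 296 to 625 CPM in control limbs (median 411). It was 135, 196 and 207 CPM after atrophy and 70.3, 83.0 and 69.8 CPM after repeated atrophy, below all control limbs in each group, and 617, 793 and 357 CPM after recovery. Its change was -1.2 ± 0.24 (adjusted p = 0.00651) and -2.44 ± 0.24 (adjusted p = 9.79e-06), the smallest adjusted p of the 41 members. Myl2 was 146 to 349 CPM in control limbs (median 233), 131, 95.4 and 156 CPM after atrophy, 247, 306 and 175 CPM after recovery, and 89.9, 121 and 84.9 CPM after repeated atrophy. The change was -0.85 ± 0.24 (adjusted p = 0.0189) and -1.21 ± 0.24 (adjusted p = 0.00109).

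Myl4, the essential light chain of atrium and embryonic muscle, rose. It was 11.3 to 22.1 CPM in control limbs (median 14.2), 17.6, 15 and 18.2 CPM after atrophy, 49.9, 38.7 and 70.7 CPM after recovery and 31.4, 24.6 and 21.4 CPM after repeated atrophy. The recovery limbs were above all control limbs (1.77 ± 0.20, adjusted p = 0.000208), and with the block the rise was 1.48 (adjusted p = 0.0638). After repeated atrophy it was 0.79 ± 0.20 (adjusted p = 0.00552), and 0.42 on the rescaled values (adjusted p = 0.169). Per length and over all rows of each symbol, Myl4 made up 0.176% to 0.345% of the essential light chain reads after recovery and 0.106% to 0.184% in control limbs.

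Myl1, the fast essential light chain, is listed as 2 transcripts on the minus strand that share their 3′ end. The row of 793 bases (chr9:68437515-68448090, rn7) starts inside the gene and stood for the symbol, and the row of 975 bases (chr9:68437515-68457987) starts upstream. The shorter row was 11614, 10570 and 10385 CPM after recovery, above the control range of 4318 to 7898 CPM, and within these animals the left limb exceeded the right by 0.87, 0.78 and 0.77 (log2 fold change 0.85, adjusted p = 0.0702). The longer row was 13266, 13019 and 11829 CPM after recovery and was called against the pooled control limbs (1.26, adjusted p = 0.0417), but within animals the difference was 0.60 (adjusted p = 0.361). Mylpf, the fast regulatory light chain, was not called against control (-0.61, 0.84 and -0.43). It made up 96.5% to 99% of the regulatory light chain reads per length in control limbs and 98.2% to 99% after repeated atrophy. Myl6, a non-muscle light chain, was not called (0.04, 0.26 and -0.01).

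The assembly and chaperone factors were the band without a fall among the calls. After atrophy 2 of 4 were higher, after recovery 0 were called and, in limma, 0 had an unadjusted p under 0.05, and after repeated atrophy 3 were higher. The band's median log2 fold change was 0.55, -0.01 and 1.09. On the rescaled values 2 were higher and 1, Smyd1, was lower after repeated atrophy.

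Klhl41 and Klhl40 encode kelch proteins that stabilise thin filament proteins. Klhl41 ranged from 941 to 2555 CPM in control limbs (median 1223). It was 5752, 1946 and 4472 CPM after atrophy, 1263, 1205 and 1923 CPM after recovery and 3607, 4656 and 4221 CPM after repeated atrophy, when all limbs exceeded control. The change was 1.42 ± 0.33 (adjusted p = 0.00946) and 1.59 ± 0.33 (adjusted p = 0.00149). Klhl40 was 87.9 to 286 CPM in control limbs (median 143), 326, 217 and 333 CPM after atrophy, 138, 133 and 172 CPM after recovery and 402, 380 and 585 CPM after repeated atrophy. Its change was 0.94 ± 0.26 (adjusted p = 0.0179) and 1.58 ± 0.26 (adjusted p = 0.000311), and on the rescaled values 0.56 after atrophy (adjusted p = 0.110). Unc45b, the muscle myosin chaperone, was 180 to 319 CPM in control limbs (median 221), 288, 226 and 238 CPM after atrophy, 192, 186 and 205 CPM after recovery and 296, 307 and 423 CPM after repeated atrophy. It was called in the last comparison (0.59 ± 0.17, adjusted p = 0.0108), but not on the rescaled values (0.21, adjusted p = 0.321). Smyd1, a methyltransferase that acts with Unc45b in myosin folding, had a change of -0.76 after repeated atrophy (adjusted p = 0.0558), and -1.14 on the rescaled values (adjusted p = 0.00832).

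Of the 34 members with a promoter in the RefSeq table, 6 held a MEF2 box (Klhl40, Klhl41, Myl1, Myom3, Myoz1 and Myoz2), or 17.6%, beside 3.29% of all promoters. The box is the A/T-rich site of the MEF2 factors and reads the same on both strands. No member promoter held both motifs. The windows of 3 members that rose together after repeated atrophy (Myom3, Klhl40 and Klhl41) are shown with that of Myoz1, which fell. They are 300 bases on the plus strand of GRCr8, at chr5:153276056-153276355, chr8:130318543-130318842, chr3:74841868-74842167 and chr15:3693363-3693662 in that order, and capitals mark the MEF2 box.
Myom3: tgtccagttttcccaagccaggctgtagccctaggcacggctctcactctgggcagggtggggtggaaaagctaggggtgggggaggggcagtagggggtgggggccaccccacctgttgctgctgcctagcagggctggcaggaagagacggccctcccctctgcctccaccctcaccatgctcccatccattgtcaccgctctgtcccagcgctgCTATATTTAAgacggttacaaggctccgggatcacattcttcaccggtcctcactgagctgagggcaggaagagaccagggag
Klhl40: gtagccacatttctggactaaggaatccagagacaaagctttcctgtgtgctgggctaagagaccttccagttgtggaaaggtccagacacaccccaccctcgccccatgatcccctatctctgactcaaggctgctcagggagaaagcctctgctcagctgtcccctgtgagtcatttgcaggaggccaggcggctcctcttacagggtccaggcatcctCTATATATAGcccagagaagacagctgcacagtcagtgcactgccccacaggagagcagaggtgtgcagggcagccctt
Klhl41: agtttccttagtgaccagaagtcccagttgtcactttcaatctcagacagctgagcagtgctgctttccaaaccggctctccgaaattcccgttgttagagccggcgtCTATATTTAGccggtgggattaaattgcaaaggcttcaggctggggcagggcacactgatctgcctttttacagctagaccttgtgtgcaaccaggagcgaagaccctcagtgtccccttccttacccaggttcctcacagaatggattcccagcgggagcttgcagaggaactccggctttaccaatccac
Myoz1: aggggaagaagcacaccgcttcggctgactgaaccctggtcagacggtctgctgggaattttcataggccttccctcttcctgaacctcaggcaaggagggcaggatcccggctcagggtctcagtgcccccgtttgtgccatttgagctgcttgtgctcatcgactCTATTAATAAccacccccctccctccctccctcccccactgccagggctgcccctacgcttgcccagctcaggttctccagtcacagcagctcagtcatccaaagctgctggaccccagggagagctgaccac
The box begins at base 218, 222, 109 and 168 of these windows. A MEF2 box was therefore present in members that rose, in 1 that fell and, for Myl1 and Myoz2, in members that were not called. Of the factors themselves, Mef2a was called higher after repeated atrophy (1.31 ± 0.26, adjusted p = 0.000942) and Srf lower (-0.80 ± 0.18, adjusted p = 0.00267).

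Ratios between isoforms of the same protein are not touched by the scaling of a library, and 9 pairs were compared in the 3 treated groups by exact two-sided permutation tests over all 220 splits of 3 against 9 limbs. The smallest p this design allows is 0.00455, and p-values were adjusted over the 27 tests. The splits ignore that each treated limb is paired with a control limb of the same animal. The ratios are of CPM + 1 without division by length, so their sign does not say which isoform is more abundant. After adjustment 4 pairs differed from control in atrophy limbs, 2 in recovery limbs and 7 in repeated atrophy limbs. Without any 1 of the repeated atrophy animals, 0 of the 27 exact permutation tests passed adjustment and 15 had an unadjusted p under 0.05, and without atrophy animal 1, 7 passed. With 2 treated limbs against 8 the smallest exact p is 0.0222, so tests with an animal left out are less able to pass.

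After repeated atrophy, ratios moved toward Tmod1 over Tmod4, Myom3 over Myom2, Actn2 over Actn3, Mybpc1 over Mybpc2 and Myoz2 over Myoz1, and away from Myl3 over Myl1 and Tpm3 over Tpm1. The log2 ratio of Tmod1 to Tmod4 was -0.74 ± 0.30 (SD, n = 9) in control limbs and 1.44 ± 0.06 (SD, n = 3) after repeated atrophy (exact p = 0.00455, adjusted p = 0.0153). Myom3 to Myom2 went from -6.03 ± 0.98 to -0.89 ± 1.00 (adjusted p = 0.0153 by the exact test), the largest shift at 5.14. For Actn2 to Actn3 the shift was 2.47, for Mybpc1 to Mybpc2 1.64 and for Myl3 to Myl1 -2.94 (adjusted p = 0.0153 in each exact test). In these 5 pairs the treated limbs did not overlap control. Among the pairs of a slow and a fast isoform, the slow one thus gained for myosin-binding protein C and calsarcin and lost for the essential light chain and tropomyosin. Myl2 to Mylpf shifted by -0.78 (exact p = 0.0682, adjusted p = 0.108).

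After atrophy the pairs past adjustment were Myl3 to Myl1 (-1.34), Tmod1 to Tmod4 (1.67), Mybpc1 to Mybpc2 (1.56) and Actn2 to Actn3 (2.81), with adjusted p-values of 0.0153, 0.0153, 0.0245 and 0.0307 by the exact test. Within atrophy animal 2 the left minus right difference of these ratios was -0.58, 0.11, -0.07 and -0.08, so the last 3 ratios differed between limbs of animals 1 and 3 far more than in animal 2. After recovery they were Myl4 to Myl1 (0.92, adjusted p = 0.0153) and Actn2 to Actn3 (1.18, adjusted p = 0.0378, exact tests). For Myl4 to Myl1 the left minus right difference in the recovery animals was 0.84, 0.0031 and 1.18. Its recovery limbs (-8.06 to -7.18) overlapped the left (-8.08 to -7.80) and right (-8.56 to -7.71) sham limbs. The shift of Actn2 to Actn3 after recovery was present in all 3 animals, at 1.22, 1.63 and 1.11 between left and right limb. In the sham animals the left minus right difference of this ratio was -0.14 to 0.90.

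**Figure D3:**
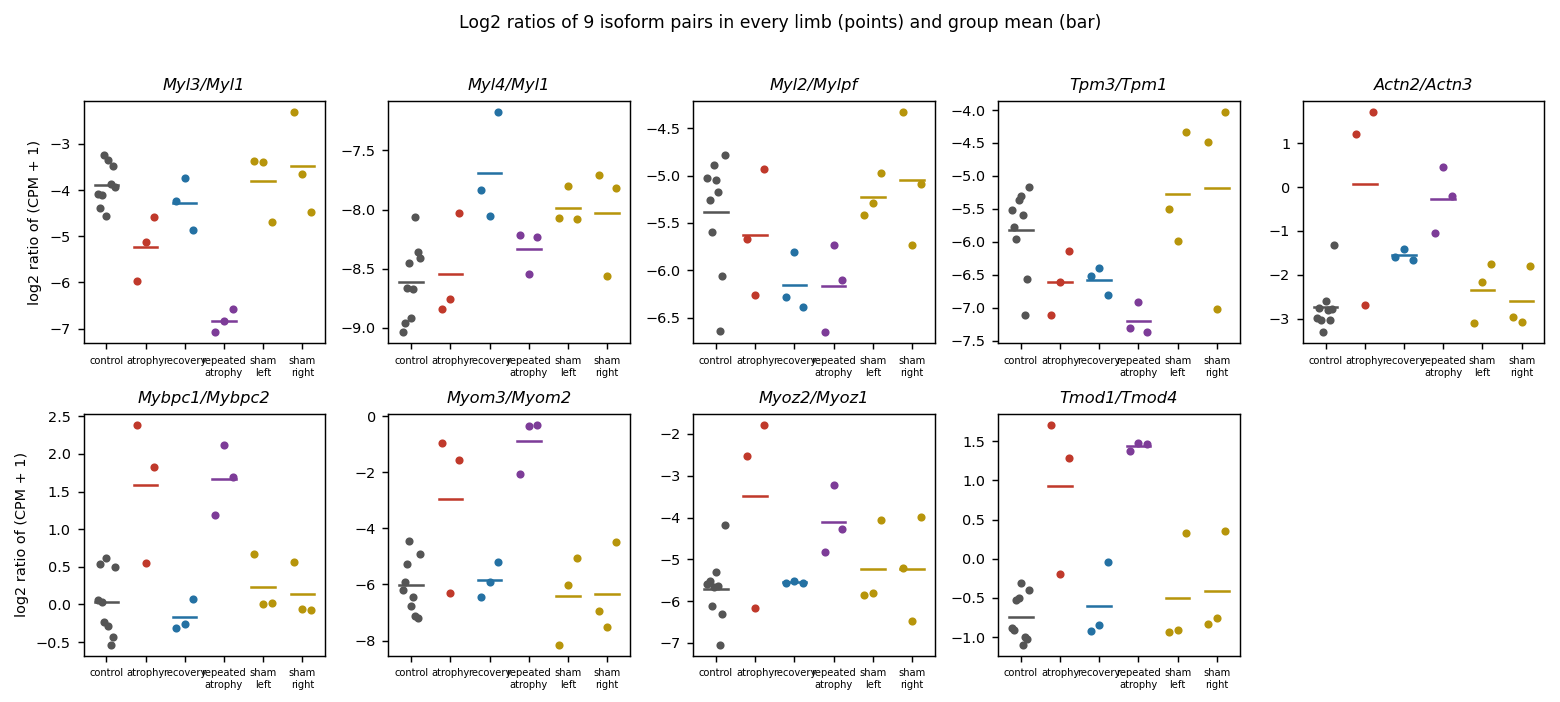
Log2 ratios of 9 isoform pairs in each limb, with points for limbs and a bar for the group mean. The 3 repeated atrophy limbs lie outside the control range for Myl3/Myl1, Actn2/Actn3, Mybpc1/Mybpc2, Myom3/Myom2 and Tmod1/Tmod4, and the recovery limbs lie outside it for Myl4/Myl1.

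The control limbs were not alike over these genes. All 3 right limbs of the recovery animals were above the other 6 control limbs for 10 members (Acta1, Actc1, Tpm1, Tpm2, Mylpf, Ldb3, Pdlim7, Capzb, Ky and Smyd1), and below them for 6 (Lmod2, Tmod1, Cfl2, Tcap, Pdlim3 and Klhl41). Of all rows, 2.82% were above and 8.07% below in this way. The difference was widest for Ky among the higher members. Tpm1 was 20586 to 20967 CPM in the right limbs of the recovery animals and 8245 to 13600 CPM in the other 6, and the treated limbs of the same recovery animals, at 20399 to 23050 CPM, were level with their own right limbs. Its difference after recovery was 0.60 against the pooled control limbs (adjusted p = 0.326) and 0.04 within animals (adjusted p = 0.974). Sham animal 2, sampled at the recovery time without TTX, held 19828 CPM in the left and 21788 CPM in the right limb. The other sham limbs held 6923 to 11892 CPM.

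Mylpf was 12616 to 16080 CPM in the right limbs of the recovery animals and 4858 to 10741 CPM in the other 6, and Acta1 45986 to 50964 against 19938 to 43810 CPM. Ky was 644 to 844 CPM against 72.1 to 400, and its left limbs after recovery, at 298 to 514 CPM, lay below their own right limbs but within the pooled control range. For Tpm2, by contrast, the left limbs of the recovery animals, at 13369 to 14875 CPM, exceeded their own right limbs (10117 to 10832 CPM) in all 3 animals, although no change was called (0.72, adjusted p = 0.141). Each animal was sampled at 1 time point, so a difference between time points in right limbs is one between sets of 3 animals. Its cause was not tested. The paired plot of limbs shows these genes.

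**Figure D4:**
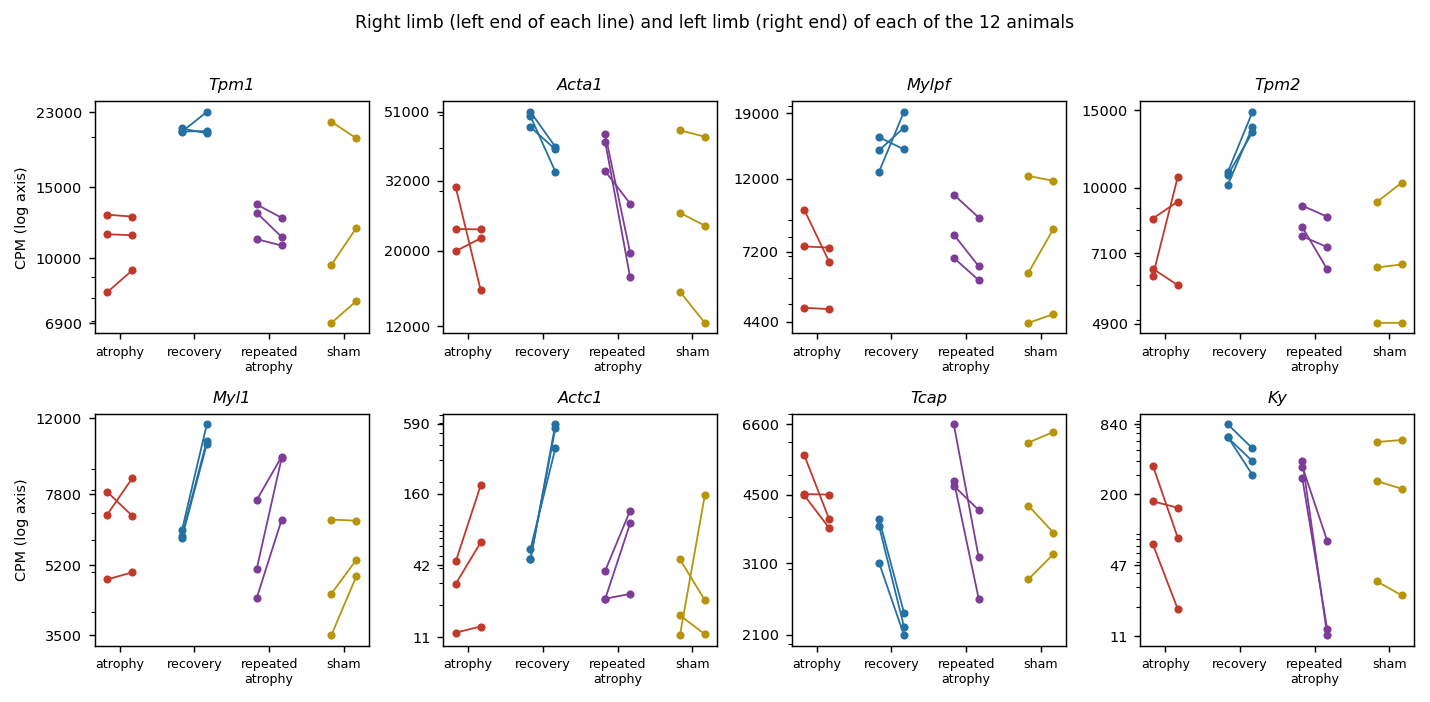
CPM of 8 members on log axes, with a line for each animal from its right limb to its left limb. The 3 recovery animals and 1 sham animal start from the highest right limbs for Tpm1, Acta1 and Ky, the lines of Myl1, Tpm2 and Actc1 rise in all 3 recovery animals, and those of Tcap and Ky fall.

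Between treated groups, recovery differed from atrophy in 10 members that were higher and 6 that were lower (3.34% and 14.5% of all rows), and repeated atrophy from recovery in 8 higher and 14 lower members (21% and 6.29%). On the rescaled values the counts were 11 and 2 (5.68% and 4.87% of all rows) and 6 and 18 (10.3% and 11.3%). All 5 light chain members called between repeated atrophy and recovery were lower (Myl2, Myl3, Myl4, Mylpf and Mylk2), with Myl3 at -2.90 ± 0.29 (adjusted p = 5.36e-05). As differences of left minus right limb between groups of animals, 0 of the 41 members were called by limma in either comparison, with 6 (recovery against atrophy) and 19 (repeated atrophy against recovery) at an unadjusted p under 0.05. Of all rows, 0.0143% and 0.0855% were called in this way, and 7.96% and 19.7% had an unadjusted p under 0.05. Repeated atrophy against atrophy had 0 calls with limma among the members, 8 of which had an unadjusted p under 0.05, and 0.0356% of all rows were called. The widest differences there were 1.52 for Myom3 and -1.43 for Ky, neither past the test.

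Counting limbs that do not overlap, 1 member was above all control limbs after atrophy and 2 were below (4.75% and 0.52% of all rows). After recovery 5 were above and 2 below (5.57% and 4.84%), and after repeated atrophy 6 were above and 13 below (16.5% and 3.87%). Between the limbs of the same animal, 15 members were higher and 21 lower on the left in all 3 repeated atrophy animals, against 40.3% and 13.4% of all rows. In the recovery animals 12 were higher and 9 lower (29.6% and 14.8%), in the atrophy animals 10 and 13 (25.3% and 7.54%), and in the sham animals 3 and 6 (14.4% and 8.91%). Left sham limbs against control gave 0 calls with limma among the 41 members and over all rows (0.0%), with 3 members at an unadjusted p under 0.05.

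Of 21 other sarcomere and Z-disc genes measured, 7 were higher and 3 lower in atrophy limbs, 2 and 3 in recovery limbs, and 7 and 3 in repeated atrophy limbs. Csrp3, the muscle LIM protein of the Z-disc, rose from 168 ± 121 CPM (SD, n = 9) to 832 ± 197 (SD, n = 3) after repeated atrophy (2.55 ± 0.56, adjusted p = 0.00228), and Synpo2, which bundles actin at the Z-disc, was lower at 194 ± 100 CPM (SD, n = 3) against 879 ± 161 (SD, n = 9). Of 15 genes for myosin folding and chaperones, 9 were higher after atrophy, 1 after recovery, and 11 were higher and 2 lower after repeated atrophy. The small heat shock protein Hspb8 went from 663 ± 178 CPM (SD, n = 9) to 3616 ± 624 (SD, n = 3) after repeated atrophy (2.47 ± 0.29, adjusted p = 3.76e-05). On the rescaled values the higher and lower counts were 3 and 3, 3 and 3, and 5 and 4 for the first list, and 4 and 1, 1 and 0, and 8 and 2 for the second. Of 10 factors on the SRF and MEF2 list 6 were in the table, of which 1 was higher after atrophy, 0 were called after recovery and 1 was higher and 2 lower after repeated atrophy. The call after atrophy was Tead1, neither SRF nor a MEF2 factor, at 4.50 CPM against 2.62 in control limbs. Tead1 was lower after repeated atrophy (1.38 CPM). On the rescaled values the counts were 0 higher and 1 lower after atrophy, 0 after recovery, and 1 and 2 after repeated atrophy.

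Markers of fibres and of other cells moved with some of these changes. Of the 10 adult fibre markers, 2 were lower after atrophy (Eno3 and Myh7), and 3 were lower (Eno3, Myh7 and Atp2a1) and 1 higher after repeated atrophy (3 lower and 0 higher on the rescaled values), beside the members that fell. Their median log2 fold change was -1.04, 0.12 and -0.76. Of 8 fibroblast markers 7 were higher after recovery, with a summed level of 1298 to 2450 CPM against 220 to 660 in control limbs, and 0 were called in the TTX groups. Of 10 macrophage and leukocyte markers 4 were higher after recovery (122 to 250 CPM against 44.7 to 164). Markers of satellite cells and myoblasts (4 of 6 higher after atrophy and after repeated atrophy, with sums of 280 to 1187 and 798 to 1000 CPM against 79.0 to 237) and of developing or regenerating fibres (3, 2 and 5 of 5 higher after atrophy, recovery and repeated atrophy) moved with the members that rose, and 1 of the 6 satellite cell markers was lower after recovery and after repeated atrophy. On the rescaled values the same 2 lists had 3 and 4, and 1, 2 and 5, higher genes, and 8 fibroblast and 7 macrophage and leukocyte markers were higher after recovery. Myog alone had a mean of 465 CPM after atrophy and 528 after repeated atrophy, against 57.4 in control limbs. The list of developing or regenerating fibres includes Chrnd, Chrng and Ncam1. Whether adult fibres or other cells expressed these markers was not tested. The part of other cells in the results was not tested either. Of smooth muscle, adipocyte and Schwann cell markers, 0 of 7, 0 of 5 and 1 of 7 were called in any comparison with control. The smooth muscle sum (3831 to 7307 CPM in control limbs) includes Des, which muscle fibres also express. Of 5 heart markers, Tnnt2 was higher and Myh6 lower after atrophy and repeated atrophy, and 1 was higher after recovery (2 on the rescaled values). The call after recovery was Nppa, near the floor at a mean of 0.214 CPM against 0.0038 in control limbs. The sum of heart markers was between 19.7 and 112 CPM under TTX and 22.6 to 64.7 CPM in control limbs. Of 7 endothelial markers, 1 (Cldn5) was lower after recovery, and 4 were lower after repeated atrophy on the rescaled values (median -0.55) that were not called without rescaling. Rescaling also gave 1 lower smooth muscle marker after repeated atrophy and 1 lower Schwann cell marker in each TTX group.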

How the data were processed

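RNA-seq values of the 24 TA libraries were taken as the authors deposited them, in counts per 1000000 reads (CPM) per transcript row. Per the labels and methods, directional paired-end reads were cleared of contaminants with Bowtie2 2.2.5, aligned with STAR to rn7 and quantified in Partek Flow. The annotation and the handling of reads shared between rows are not given in the sources used here. Each column summed to 1000000, although DESeq2 normalization is named in the submitters' processing notes. Among the low values above 0, between 86.6% and 88.4% were whole multiples of 1 read (tolerance 0.02), so no count test was run. Of 27 value columns, 3 matched no sample and were not used. After 28 exact duplicate rows were dropped, 14243 rows remained.

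Values were analysed as log2(CPM + 1) with limma 3.58.1 (trend) in R 4.3.3, in 1 fit of the 18 TTX-animal limbs, over rows above 0 in at least 3 limbs. Left sham limbs were fitted separately. Ratios were tested by exact permutation in Python 3.11.15. A further isoform ratio is not reported here. The scripts were tested on simulated data.

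Within each band, values per limb were given for members called in a comparison with control, by size of change, at most 6 per band, and the other members by ranges. Acta1, Myl1 and the members described in the right limbs were added after their values were seen. Members and lists were chosen with earlier results of these data known. Left and right limbs come from the same animal per the labels, and their deviations from group means correlated at r = 0.274 on average over 12 animals (0.118 over the 9 TTX animals), across 10619 rows. Fits with the animal as a block, other scalings, filters and pseudocounts, and fits leaving out each treated animal or control limb are given as alternatives. Depth limits rare transcripts, since 1 read was worth up to 0.053 CPM. Nothing in the labels separates RNA extractions or sequencing batches, so p-values describe the spread between these limbs.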

Additional observations from a re-analysis of the deposited data

Results flagged for a closer look

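Over the 41 members, the highest or lowest of the 9 control limbs lay apart from the rest for 6, by a Dixon test of log2 levels at the 95% level, which chance gives for about 1 group in 20. In 5 of the 6 the limb was the right limb of atrophy animal 3. It held 918 CPM of Lmod2 (next limb 306.6), 2528 CPM of Actn2 (next 1943) and 2721 CPM of Pdlim3 (next 1249), all the highest, and 6334 CPM of Actn3 (next 10225) and 1646 CPM of Myoz1 (next 3479), both the lowest. In the sixth, the right limb of repeated atrophy animal 1 held the lowest Myl6 level, 23.4 CPM (next 34.3). Without the right limb of atrophy animal 3, Actn2 was called higher after atrophy, and the 25 calls after repeated atrophy were the same.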

How the results depend on the processing

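The calls after repeated atrophy were the least dependent on the processing, with 23 to 29 members called in every alternative against 25, and 22 of them called in the fit as reported, on the rescaled values and with the animal as a replicate block. With the replicate block, calls fell from 20 to 0 after atrophy, from 4 to 1 after recovery (7 with rows of a mean of at least 10 CPM), from 16 to 0 between recovery and atrophy and from 22 to 0 between repeated atrophy and recovery. Rescaling together with the replicate block, chosen after seeing the data, gave 0, 2, 0 and 0. With only the compared groups in the fit, recovery against atrophy gave 8. Leaving out each treated animal (both limbs) or control limb in turn gave 0 to 23 members after atrophy (0 without atrophy animal 1), 2 to 5 after recovery (2 without recovery animal 1 or 2), 23 to 26 after repeated atrophy, 3 to 23 between recovery and atrophy (3 without recovery animal 1 or 2, 6 without atrophy animal 1, 9 without atrophy animal 3), 15 to 19 between repeated atrophy and recovery, and 0 to 15 of the 27 isoform ratio tests against 13 (0 by the exact permutation test without any 1 of the repeated atrophy animals, with 15 at an unadjusted p under 0.05 each time, and 7 without atrophy animal 1). With 2 limbs left in a group the smallest exact p is 0.0222 against 8 control limbs. No change of sign occurred in a called result. The cause of these differences was not tested.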
